A study of Mus musculus with 15 samples.

Results

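The effect of losing claudin-10a was compared between 2 segments of the mouse kidney tubule, the proximal and the distal convoluted tubule. The quantity described is, for each gene, the log2 change from wild type to knockout in proximal tubule minus the same change in distal tubule. It was taken from 1 fit of all 15 libraries in 4 groups and could be tested for 15279 of the 54752 genes in the count table, 27.91%; the other 39473 had too few counts (a gene was kept with about 10 counts, scaled to library size, in at least 3 libraries). A positive difference means that the knockout stood higher, relative to wild type, in proximal tubule than in distal tubule.

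The groups were proximal tubule of wild-type mice (WT, 4 libraries) and of Cldn10a KO mice (3 libraries), and distal convoluted tubule of WT (4 libraries) and of Cldn10a KO mice (4 libraries). Each library was RNA from tubules dissected after enzymatic preparation, 10 proximal or about 20 distal pieces per kidney. The labels give no age, sex, strain, allele or Cre driver and do not say whether libraries come from separate animals, so each p-value rests on the spread among these samples alone, which may be technical. Libraries are named by the number in their titles (proximal WT 1, 2, 3 and 6; proximal KO 4, 5 and 7; distal WT 1 to 4; distal KO 5 to 8), and CPM are counts scaled to library size, used to compare 1 gene between libraries.

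Claudins are the membrane proteins of the tight junction that set which ions pass between epithelial cells. Claudin-10 is made in more than one form from alternative starts; claudin-10a forms an anion-selective path in the proximal tubule, which takes back most of the filtered salt, water and nutrients and burns fatty acids to do so. The distal convoluted tubule reabsorbs sodium chloride through the thiazide-sensitive cotransporter encoded by Slc12a3.

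The dissected material matched its labels as proximal or distal, though the distal libraries also held markers of neighbouring segments. The summed level of 16 proximal markers was 6440 to 7910 CPM in the proximal libraries and 10.9 to 20.8 CPM in the distal ones, and that of 19 distal convoluted tubule markers was 5580 to 7360 CPM in the distal libraries and 265 to 333 CPM in the proximal ones. In the distal libraries, connecting tubule and principal cell markers summed to 3920 to 6140 CPM, on a list that shares Calb1 with the distal one. Thick ascending limb markers summed to 466 to 682 CPM there. Libraries held 28729339 to 51764746 counts, of which 57.83% to 71.63% came from mitochondrial ribosomal RNA and 8.021% to 19.75% from nuclear protein-coding genes. Proximal KO 4 carried more immune marker RNA (26.9 CPM summed) than the other 14 libraries (3.21 to 10.4 CPM), and proximal KO 5 was the lowest for cytosolic ribosomal protein genes (1280 CPM, against 2180 to 2680 CPM in the 4 proximal WT libraries). The part of these features in any result was not tested.

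Cldn10 (chromosome 14, 118787908 to 118875489, plus strand, GRCm38 with GENCODE M21 annotation) was counted as 1 gene, with no separation of its starts. RefSeq places 2 starts in it, and the 250 bases before each are shown because the counts cannot tell which of them the reads came from; capitals mark CG pairs. The window before the first start lies at chr14:118787621-118787870 and the window before the second at chr14:118854700-118854949, both on the plus strand of GRCm38.p6.
Cldn10 window 1: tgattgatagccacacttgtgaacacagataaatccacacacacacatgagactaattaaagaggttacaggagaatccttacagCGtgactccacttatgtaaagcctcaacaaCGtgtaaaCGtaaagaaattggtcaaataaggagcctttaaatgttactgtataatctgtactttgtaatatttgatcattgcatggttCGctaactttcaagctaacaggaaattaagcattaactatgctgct
Cldn10 window 2: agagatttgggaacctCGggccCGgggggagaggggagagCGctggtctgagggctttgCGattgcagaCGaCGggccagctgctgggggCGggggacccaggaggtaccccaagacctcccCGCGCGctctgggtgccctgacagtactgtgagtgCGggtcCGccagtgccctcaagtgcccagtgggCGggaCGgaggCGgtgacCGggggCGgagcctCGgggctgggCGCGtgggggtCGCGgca
The first holds 4 CG pairs and 36.0% G and C, and the second holds 22 CG pairs and 72.4% G and C. Among the 32851 windows of this length in the RefSeq table, the median was 6 CG pairs, and 13.3% held more than the second.

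Reads of Cldn10 were lost in the proximal KO libraries, while the distal libraries held almost none in either genotype. Proximal WT libraries had 11.2, 28.6, 28.7 and 17.5 CPM (21.5 ± 8.66, SD, n = 4), and the 3 proximal KO libraries had no count. Against a limit of 3 counts per library, the knockout was at least 288-fold lower in proximal tubule. Distal WT libraries had 0.276, 0.0686, 0.103 and 0.471 CPM, and distal KO libraries had 0, 0.349, 0.597 and 0 CPM. The proximal groups did not overlap and the distal groups did. Genotype therefore matched the labels in all 3 proximal KO libraries, and the distal level was too low in WT to check it there. Permuting genotype within each segment gave an exact two-sided p of 0.0163 for the difference between segments over 2450 arrangements, the smallest possible being 0.000408. In the limma fit across all genes the log2 difference was -9.29 ± 2.26 (SE; 95% interval -13.98 to -4.59), with an adjusted p of 0.494; with the knockout at 0, its size depends on the added 0.5 count. Under limma-trend, which uses no precision weights and a prior count of 2, the adjusted p was 0.001194.

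Across the genome no other gene's difference passed either. At a Benjamini-Hochberg adjusted p under 0.05, limma called 0 of 15279 genes for the difference between segments (0%); 849 had an unadjusted p under 0.05, of which 483 (3.16%) had the higher change in proximal tubule and 366 (2.4%) the lower. The lowest adjusted p was 0.1184, for Gsta4. limma-trend called 5 genes, namely Cldn10, Gsta4, Klk1 and Slc12a3 with the lower change in proximal tubule and Tmem45b with the higher. Within segments, 123 genes were called in proximal tubule (0.805%; 92 rose and 31 fell) and 0 in distal tubule (0%), where 872 genes (5.71%) had an unadjusted p under 0.05 and the lowest adjusted p was 0.8488. A call in one segment and none in the other does not show that the effects differ, and the differences below are given with their own error.

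**Figure D1:**
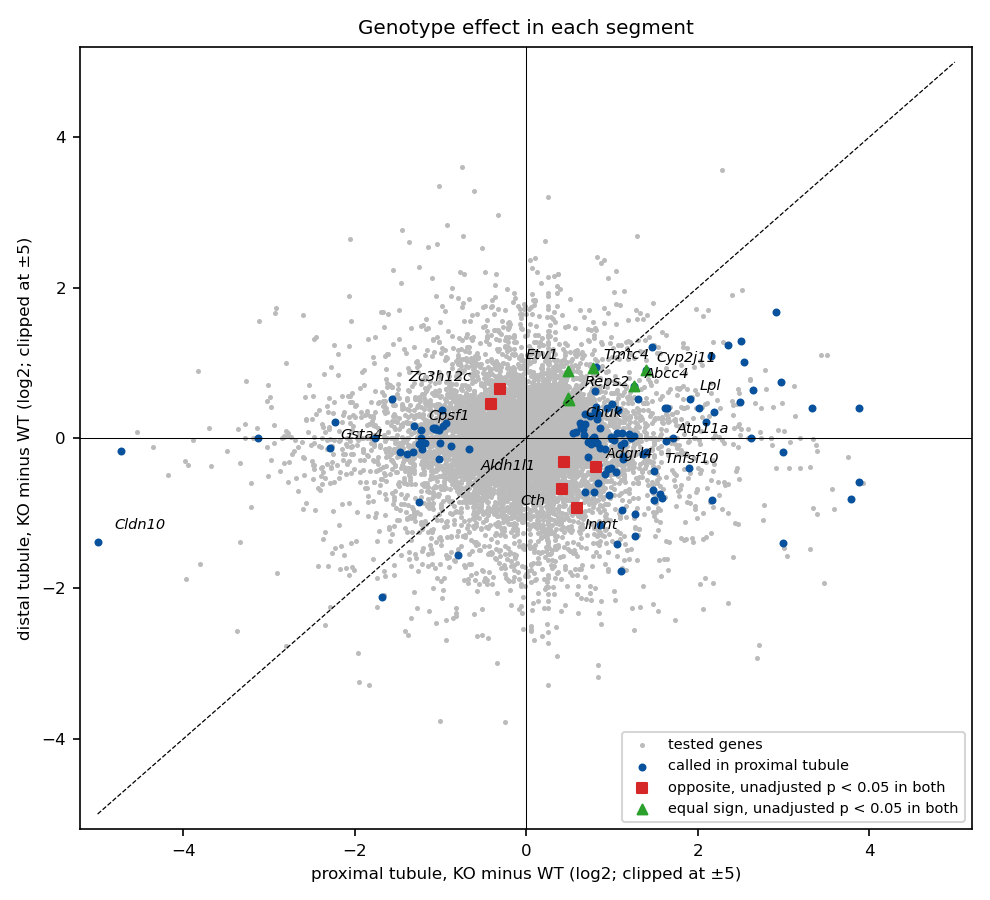
Genotype effect of each of 15279 tested genes, with the log2 change from WT to KO in proximal tubule on the x axis and in distal tubule on the y axis, both clipped at 5 in size. The 123 genes called in proximal tubule (blue) spread along the x axis and scatter above and below 0 in distal tubule; the dashed line marks equal change.

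Gsta4, a glutathione transferase that conjugates products of lipid peroxidation (chromosome 9, 78182774 to 78209349), had the smallest p for the difference. It stood at 11.2, 6.09, 7.13 and 10.7 CPM in proximal WT and at 2.26, 1.62 and 1.45 CPM in proximal KO. In distal tubule it stood at 43.1, 33.5, 46.9 and 42.3 CPM in WT and at 39.0, 44.7, 27.8 and 41.6 CPM in KO. The proximal groups were apart and the distal groups overlapped. It fell in proximal tubule by 2.29 on the log2 scale (SE 0.331, limma adjusted p 0.0009079), and its distal change of -0.13 had a 95% interval of -0.48 to 0.23. The difference was -2.16 ± 0.37 (SE). It failed the test with all libraries (limma adjusted p 0.1184). It passed without proximal WT 2 (adjusted p 0.03297) and without distal KO 7 (adjusted p 0.01685), and failed without any other single library.

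Tnfsf10, which encodes the death-receptor ligand TRAIL, had the smallest p in the other direction. Its level was 1.36, 1.66, 1.61 and 3.66 CPM in proximal WT and 7.36, 6.01 and 3.57 CPM in proximal KO. In distal tubule it was 8.58, 6.63, 7.10 and 6.06 CPM in WT and 5.22, 5.37, 4.85 and 5.03 CPM in KO. The proximal groups overlapped by 1 library each, WT 6 and KO 7, whose library numbers in the labels lie in another range than those of the other 13; the distal groups did not overlap, with the KO below. Tnfsf10 rose in proximal tubule (log2 1.49 ± 0.29, limma adjusted p 0.01134), and the difference was 1.94 ± 0.37 (adjusted p 0.1986). Without both of those libraries it was 2.54 with an adjusted p of 0.0007709, and it also passed without WT 6 alone (0.03676) and without KO 7 alone (0.0228). It failed without any other single library.

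A group of genes was higher in the proximal KO libraries and had close group means of the genotypes in the distal ones. Atp11a, a phospholipid flippase, stood at 30, 54.7, 23.8 and 47.8 CPM in proximal WT and at 101, 124 and 120 CPM in KO. In distal tubule its mean was 8.00 ± 2.31 CPM (SD, n = 4) in WT and 7.93 ± 2.04 CPM (SD, n = 4) in KO. It rose in proximal tubule by 1.63 ± 0.22 on the log2 scale (limma adjusted p 0.0008255) and its difference was 1.68 ± 0.37. Mpv17l, a peroxisomal membrane protein, went from 18.7 ± 3.68 to 37.4 ± 2.61 CPM in proximal tubule, where it rose (adjusted p 0.001617), beside 5.36 ± 0.78 and 5.23 ± 0.82 CPM in distal tubule (SD, n = 4, 3, 4 and 4). Agps, an enzyme of ether lipid synthesis in the peroxisome, went from 42.9 ± 15.0 to 93.2 ± 7.91 CPM and rose (adjusted p 0.003139), beside 15.9 ± 1.02 and 16.7 ± 2.59 CPM. Acy3, an aminoacylase, rose in proximal tubule from 230.6 ± 44.3 to 506.5 ± 115.2 CPM (adjusted p 0.0008255), with 2.94 ± 0.64 and 2.47 ± 0.52 CPM in distal tubule. Each of these 4 failed the test of the difference over all genes (adjusted p 0.4593 for Atp11a, 0.494 for Acy3 and Mpv17l, 0.5018 for Agps). The unadjusted 95% intervals of the difference lay above 0, which follows from naming genes by a small p for it. The 95% intervals of the distal change were -0.65 to 0.56 (Atp11a), -0.44 to 0.40 (Mpv17l), -0.41 to 0.51 (Agps) and -0.87 to 0.38 (Acy3). Distal changes within them were not excluded.

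Ly6e, Cdo1 and Reep5 had lower levels in proximal than in distal WT tubule, and the proximal KO mean lay between them for Ly6e and Cdo1. Ly6e, a membrane-anchored antigen of the Ly6 family, stood at 6.67, 13.4, 6.48 and 14.6 CPM in proximal WT and at 25, 15.4 and 23.3 CPM in proximal KO, with 49.3 to 62.9 CPM in distal WT and 37.2 to 61.7 CPM in distal KO. Cdo1, the enzyme that oxidises cysteine, stood at 2.5, 3.44, 2.14 and 7.55 CPM in proximal WT and at 11.9, 8.23 and 7.36 CPM in proximal KO, with 42.4 to 73.1 and 46.4 to 58.2 CPM in distal WT and KO. Only the Cdo1 proximal groups overlapped, through the same pair of libraries, WT 6 and KO 7. Both rose in proximal tubule (limma adjusted p 0.03421 for Ly6e and 0.03033 for Cdo1), as did Reep5, a shaper of the endoplasmic reticulum (0.01493). Their differences were 1.40 ± 0.32, 1.58 ± 0.37 and 1.21 ± 0.31, and of the 3 only Cdo1 passed the test without both WT 6 and KO 7 (adjusted p 0.03956).

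**Figure D2:**
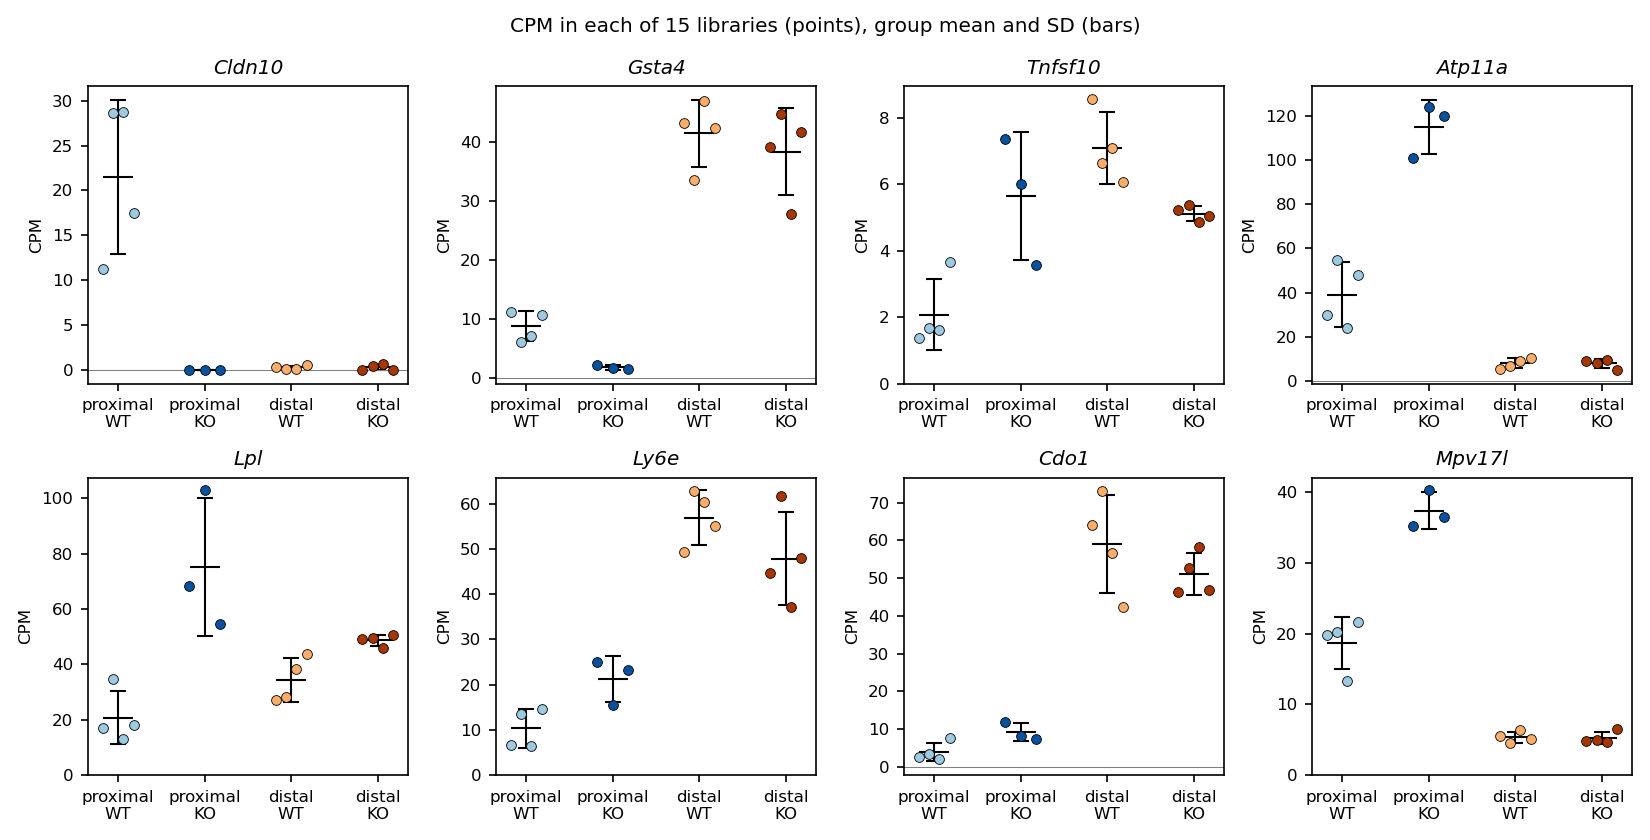
CPM of 8 genes in each of the 15 libraries (points), with the group mean and SD (bars), for proximal WT and KO and distal WT and KO. Cldn10 and Gsta4 are lower in the proximal KO libraries and the other 6 genes are higher on average there, and the distal groups of each gene except Tnfsf10 and Lpl overlap.

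Lpl was higher in the KO libraries of both segments. Lipoprotein lipase frees fatty acids from circulating triglyceride; Lpl stood at 17.0, 34.6, 13.2 and 18.2 CPM in proximal WT and at 68.3, 103 and 54.6 CPM in KO, and at 27.3, 28.2, 38.2 and 43.6 CPM in distal WT and 49.1, 49.5, 45.9 and 50.5 CPM in distal KO. Neither pair of groups overlapped. The proximal rise was 1.91 ± 0.24 (limma adjusted p 0.0004236), the distal value was 0.53 ± 0.22 (adjusted p 0.8488), and the difference between them was 1.38 ± 0.33 with a 95% interval of 0.70 to 2.07 (adjusted p 0.494).

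In the opposite direction, 5 further genes were lower in proximal KO and close between genotypes in distal tubule. Spp1, which encodes osteopontin, a secreted phosphoprotein raised in tubular injury, stood at 190, 101, 109 and 152 CPM in proximal WT and at 48.3, 94.6 and 41.0 CPM in proximal KO, and at 338 to 447 CPM in distal WT and 316 to 417 CPM in distal KO. Endod1 (2.78 ± 0.43 to 1.16 ± 0.18 CPM) and Myof, a ferlin of membrane repair (4.99 ± 1.09 to 2.19 ± 0.38 CPM), behaved alike in proximal tubule, and in distal tubule stood at 2.37 ± 0.46 and 2.17 ± 0.28 CPM and at 4.01 ± 1.22 and 3.87 ± 0.74 CPM. These 3 fell in proximal tubule (limma adjusted p 0.01034 for Spp1, 0.0302 for Endod1 and 0.04227 for Myof). Fabp3, a fatty acid carrier (6.28 ± 2.81 to 2.79 ± 0.16 CPM), and Me3, a mitochondrial malic enzyme (3.44 ± 0.54 to 1.81 ± 0.36 CPM), were not called there (0.08754 and 0.1343). The differences of all 5 lay between -1.01 and -1.17, with adjusted p of 0.6072 to 0.6953.

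Arhgef17, Ccdc141, Fzd3, Pbld2, Smap2, Spsb4, Tcp11l1 and Zfp160 also met the rule by which genes are named here, with differences from -1.03 (Tcp11l1) to -1.61 (Arhgef17). In each the proximal mean was lower in KO and the distal mean higher in KO, and none was called in a segment. Their adjusted p for the difference ran from 0.6781 to 0.8667, and their group means were 0.82 to 15.3 CPM. Spsb4 had an interval that reached -0.06. Single libraries moved 3 of them by over 1.5 times: Arhgef17 was -0.81 without proximal KO 7, Ccdc141 was -0.89 without proximal KO 7 and -2.12 without proximal KO 5, and Spsb4 was -0.72 without proximal KO 4.

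Some of the large differences belonged to genes at trace level in one of the segments. Klk1, the tissue kallikrein of the connecting tubule, stood at 2580 to 4020 CPM in distal libraries and at 0.847, 0.787, 0.568 and 0.864 CPM in proximal WT, with 0, 0 and 0.11 CPM in proximal KO. Slc12a3 stood at 603 to 843 CPM in distal libraries and at 0.289, 0.311, 0.208 and 0.273 CPM in proximal WT, with 0.0557, 0 and 0 CPM in proximal KO. Klk1 has close relatives in its gene family, so its reads are uncertain. Both genes were below 1 CPM in every proximal library, with differences of -4.56 ± 1.06 and -3.84 ± 1.13. Over the whole list of 19 distal markers, 15 had a difference below 0 and 4 above. Calb1, Slc8a1, Kcnj10 and Egf each stood at 0 to 1.73 CPM in the proximal libraries. The proximal sum of the list was 278 to 333 CPM in WT and 265 to 300 CPM in KO, overlapping. It came mostly from other members, so it cannot show a change in such traces. The part of distal RNA in the proximal libraries in these differences was not tested.

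Tmem45b, a membrane protein also higher in distal tubule, ran the other way. It stood at 0.0826, 0.249, 0.0379 and 0.114 CPM in proximal WT and 2.48, 0.919 and 0.969 CPM in proximal KO, while distal WT held 12.2 to 19.0 CPM and distal KO 5.62 to 14.9 CPM. Its difference was 4.24 ± 0.92 (limma adjusted p 0.4593). Acsm2, an acyl-CoA synthetase, stood at 670 to 852 CPM in proximal WT and 905 to 1210 CPM in proximal KO, and at 1.21, 1.62, 1.65 and 2.25 CPM in distal WT against 0.472, 0.494, 0.597 and 1.20 CPM in distal KO. Its difference of 1.69 ± 0.42 rested mostly on those distal traces (distal change -1.35 ± 0.39, proximal change 0.34 ± 0.13). The summed proximal markers in the same distal libraries were 14.4, 20.8, 13.8 and 18.9 CPM in WT and 10.9, 13.2, 20.1 and 16.1 CPM in KO, which overlap. Member by member, 15 of the 16 proximal markers had a difference above 0, with a median of 0.67, a median distal change of -0.72 and a median proximal change of -0.07; the median difference was 0.39 without distal WT 4, 0.44 without distal WT 2, 1.13 without distal WT 3 and 1.14 without distal KO 7. Hnf4a, a transcription factor of the proximal tubule, stood at 0.28 ± 0.23 CPM in distal WT and 0.06 ± 0.05 CPM in distal KO, beside 94.4 ± 10.2 and 94.3 ± 16.6 CPM in proximal tubule. The part of proximal RNA in the distal libraries in these differences was not tested. Zfp185 likewise differed at low level, from 0.26 ± 0.17 CPM in distal WT to 1.04 ± 0.21 CPM in distal KO, beside 3.19 ± 0.26 and 3.50 ± 0.79 CPM in proximal tubule. In bulk tubules, fewer cells of a type and less RNA per cell cannot be told apart.

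**Figure D3:**
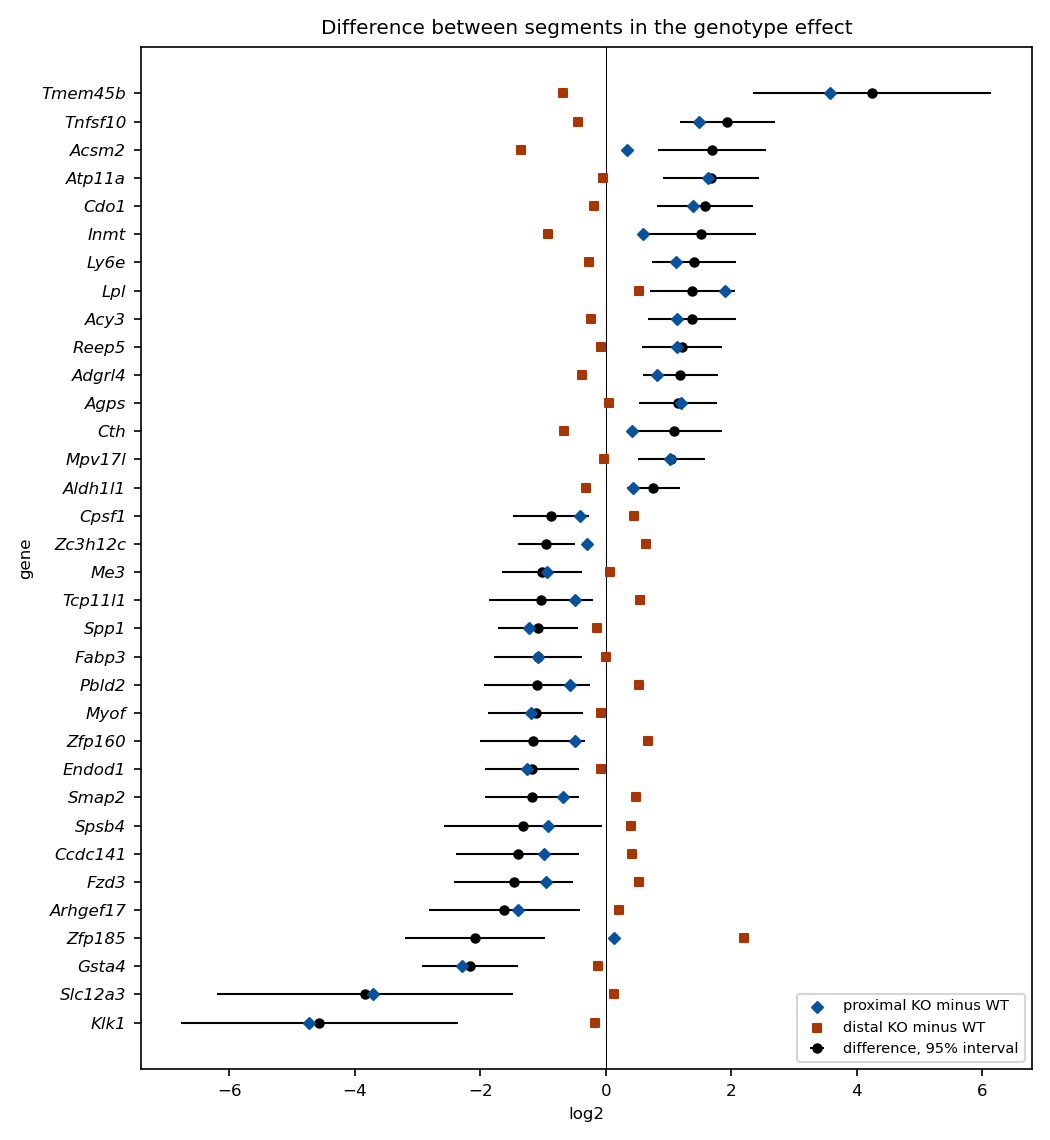
Difference between segments in the genotype effect (black points, with 95% intervals as bars) for the 34 genes named for it other than Cldn10, with the proximal (blue diamonds) and distal (brown squares) log2 changes from WT to KO on the x axis. None of these intervals is adjusted for the number of genes tested; the widest, those of Klk1, Slc12a3 and Tmem45b, belong to genes near 0 CPM in proximal tubule.

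Opposite effects were few. With an unadjusted p under 0.05 in each segment, 24 genes (0.157%) changed sign between segments and 38 (0.249%) kept it. Taken singly, 1362 genes in proximal and 872 in distal tubule had such a p. Overlaps of the size seen can arise by chance from these, and neither count was tested. Of the 24, 15 were higher in proximal KO and lower in distal KO and 9 the reverse. With a mean of at least 2 CPM in each segment, 6 of the 24 and 28 of the 38 remained. None of the 6 was called in either segment.

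Zc3h12c, a zinc finger protein of the family of regulatory RNases, stood at 31.9, 37.4, 35.8 and 31.2 CPM in proximal WT and at 24.7, 32.4 and 26.3 CPM in proximal KO, overlapping, and at 6.10, 8.30, 9.01 and 7.62 CPM in distal WT and 10.2, 11.9, 13 and 13.6 CPM in distal KO, without overlap. Its changes were -0.30 ± 0.14 and 0.65 ± 0.16 and its difference -0.95 ± 0.22. Cpsf1, a subunit of the cleavage and polyadenylation complex, had the same signs (-0.42 ± 0.20 and 0.46 ± 0.21).

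The other 4 were higher in proximal KO and lower in distal KO. They were Adgrl4, an adhesion receptor of endothelium (0.81 ± 0.22 and -0.38 ± 0.18), Aldh1l1, a folate enzyme (0.44 ± 0.15 and -0.31 ± 0.13), Inmt, a methyltransferase of indole amines (0.59 ± 0.23 and -0.93 ± 0.35), and Cth, which makes cysteine from cystathionine (0.42 ± 0.18 and -0.67 ± 0.31). Aldh1l1 stood at 13.2, 12.7, 13.5 and 14.1 CPM in proximal WT and 20.4, 20.2 and 14.6 CPM in KO, and at 33.5, 28.8, 32.3 and 38.9 CPM in distal WT and 25.4, 25.5, 26.1 and 29.9 CPM in KO. The proximal groups did not overlap and the distal groups did, by distal KO 8. The differences of the 6 ran from -0.95 to 1.51 with limma adjusted p of 0.4593 to 0.6953.

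Of the 38 genes with equal signs, 20 were higher and 18 lower in KO in both segments, and the 6 named were all higher. Abcc4, an exporter of organic anions and cyclic nucleotides on the same chromosome as Cldn10, stood at 13.8, 9.57, 10.5 and 9.07 CPM in proximal WT and 18.3, 32.6 and 27.0 CPM in KO, and at 3.00, 4.99, 4.80 and 7.21 CPM in distal WT and 7.37, 5.96, 7.66 and 11.4 CPM in KO. It rose in proximal tubule (1.26 ± 0.22, limma adjusted p 0.00603), was 0.69 ± 0.26 in distal tubule (not called), and the difference of 0.57 had a 95% interval of -0.15 to 1.29. Cyp2j11, an epoxygenase, changed by 1.40 ± 0.33 (adjusted p 0.04754) and 0.90 ± 0.30. Tmtc4, also on chromosome 14, changed by 0.78 ± 0.23 and 0.94 ± 0.23, Etv1, an ETS factor, by 0.48 ± 0.18 and 0.89 ± 0.31, Reps2, an endocytosis adaptor, by 0.48 ± 0.16 and 0.53 ± 0.18, and Chuk, the kinase IKK-alpha, by 0.50 ± 0.16 and 0.51 ± 0.18. None of these 4 was called in a segment. For Reps2 and Chuk the intervals of the difference were -0.55 to 0.45 and -0.51 to 0.49. Across the 6070 genes with at least 2 CPM in each segment, the 2 genotype effects had a Pearson r of 0.195 and a Spearman rho of 0.2298 across genes, which share the 15 libraries and are not independent replicates.

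Read against the distal tubule, the 123 genes called in proximal tubule split by sign into 64 equal and 59 opposite. These counts describe genes chosen on the proximal contrast, so nothing is read from them about the difference. In distal tubule 74 of them had a mean under 2 CPM, among them Akr1c14, Pzp, Cd36, Ace, Tmem252, Cyp4a12a, Cyp4a12b and Slco1a1. The differences of these genes were measured with less precision: the standard error of the difference was 0.7438 at the median of the 123 and 0.4999 over all tested genes. Of the 49 with at least 2 CPM in distal tubule, 43 had an unadjusted p under 0.05 for the difference. Over all 15279 tested genes, 849 did. A high share follows from the choice of genes, since the proximal change is 1 term of the difference, so nothing is read from it. In distal tubule 4 of the 123 had an unadjusted p under 0.05 with the equal sign and 0 with the opposite sign.

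Cd36, a fatty acid receptor, stood at 5.29, 18.7, 5.53 and 28.9 CPM in proximal WT and at 65.6, 94.9 and 50.7 CPM in KO (rise of 2.62 ± 0.36 on the log2 scale, limma adjusted p 0.0008585), beside 1.10 to 1.74 and 0.84 to 2.44 CPM in distal WT and KO. Its distal change was 0.00 with a 95% interval of -1.61 to 1.61, so distal changes within that range were not excluded. Ace, the angiotensin-converting enzyme of the brush border, rose from 4.08 ± 2.09 to 17.6 ± 6.80 CPM (adjusted p 0.0009079), and its distal level was 0.33 ± 0.24 and 0.18 ± 0.12 CPM. Akr1c14, a steroid reductase, rose from 2.92 ± 2.0 to 19.3 ± 7.75 CPM (adjusted p 0.0004236), Pzp, a protease inhibitor of plasma, from 3.78 ± 2.48 to 19.7 ± 8.20 CPM (0.0004236), and Slco1a1, an organic anion uptake carrier, from 5.87 ± 6.30 to 43.2 ± 23.1 CPM (0.001137), each with 0 to 0.193 CPM in every distal library. Tmem252 rose from 12.0 ± 2.45 to 29.1 ± 6.01 CPM (0.0009079). Cyp4a12a and Cyp4a12b, fatty acid hydroxylases, rose as well (both 0.0009079), but are near-identical copies whose reads could be split between them, so their single values are uncertain.

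Gene lists were described by counts, without a test, since no gene passed for the difference. The lists were chosen with earlier results of these data known. Of 15279 genes, 3.16% had an unadjusted p under 0.05 with the higher change in proximal tubule, 2.4% with the lower, and the median difference was -0.002225. Endothelial markers stood highest against these shares, with 12 of 19 tested (63.2%) on the higher side and 0 on the lower side, 18 of 19 above 0 and a median difference of 0.99. Members of a marker list are not independent of one another. Flt1, a receptor for vascular growth factor, stood at 2.58, 4.18, 5.8 and 5.09 CPM in proximal WT and 8.78, 7.50 and 5.42 CPM in KO, and at 12.0 to 13.6 CPM in distal WT and 9.23 to 10.8 CPM in distal KO. The proximal groups overlapped by KO 7 and the distal groups did not overlap. Cdh5, the cadherin of endothelial junctions, changed by 1.002 ± 0.37 and -0.45 ± 0.26, and Adgrf5 by 0.93 ± 0.33 and -0.42 ± 0.21.

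Summed over the list, endothelial markers were 26.5, 38.6, 43.0 and 49.6 CPM in proximal WT and 73.6, 72.9 and 41.1 CPM in proximal KO, and 109, 144, 158 and 134 CPM in distal WT and 104, 119, 104 and 104 CPM in distal KO. Both pairs of groups overlapped. None of the 19 was called in a segment. Leaving out single libraries gave 8 to 12 of 19 and medians of 0.81 to 1.29, with 8 without proximal WT 1, without proximal KO 4 and without proximal KO 5; the fixed replicate block gave 7. Adgrl4, which is among the 10 genes with the smallest p on the higher side, is one of these markers. The part of endothelial RNA in the results for other genes, Lpl and Cd36 among them, was not tested. As background, endothelium also makes Cd36. In proximal KO 4, 5 and 7, Lpl stood at 68.3, 103 and 54.6 CPM beside endothelial sums of 73.6, 72.9 and 41.1 CPM.

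Genes of fatty acid uptake and oxidation and targets of the receptor PPAR had 12 of 49 tested (24.5%) on the higher side and 2 on the lower side, and a median difference of 0.42, which was 0.23 without proximal KO 4. In proximal tubule 11 of the 49 rose and 0 fell, beside 92 and 31 of all 15279 tested genes. In distal tubule 0 were called, as over all genes. Summed, they were 2340, 2590, 2350 and 2640 CPM in proximal WT and 3600, 3370 and 3680 CPM in proximal KO, which did not overlap, and 589 to 629 CPM in distal WT and 608 to 670 CPM in distal KO, which did. Ehhadh, the bifunctional enzyme of peroxisomal oxidation, rose in proximal tubule from 42.7 ± 8.87 to 78.2 ± 19.0 CPM (limma adjusted p 0.01156) beside 5.74 ± 0.67 and 5.29 ± 0.71 CPM in distal tubule. Slc27a2, a fatty acid transporter with acyl-CoA synthetase activity, rose from 192.2 ± 48.3 to 358.3 ± 64.0 CPM (0.008446). Crot, Slc25a20, Acadm and Acadl, enzymes and carriers of peroxisomal and mitochondrial oxidation, had differences of 0.77, 0.98, 0.43 and 0.52. The 2 on the lower side were Fabp3 and Ppargc1a, the coactivator of mitochondrial genes, which stood at 35.0 to 43.8 CPM in proximal WT, 25.2 to 37.4 CPM in proximal KO, 64.1 to 74.7 CPM in distal WT and 70.7 to 99.7 CPM in distal KO. The list count was 9 to 15 when single libraries were left out and 8 with the fixed replicate block.

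**Figure D4:**
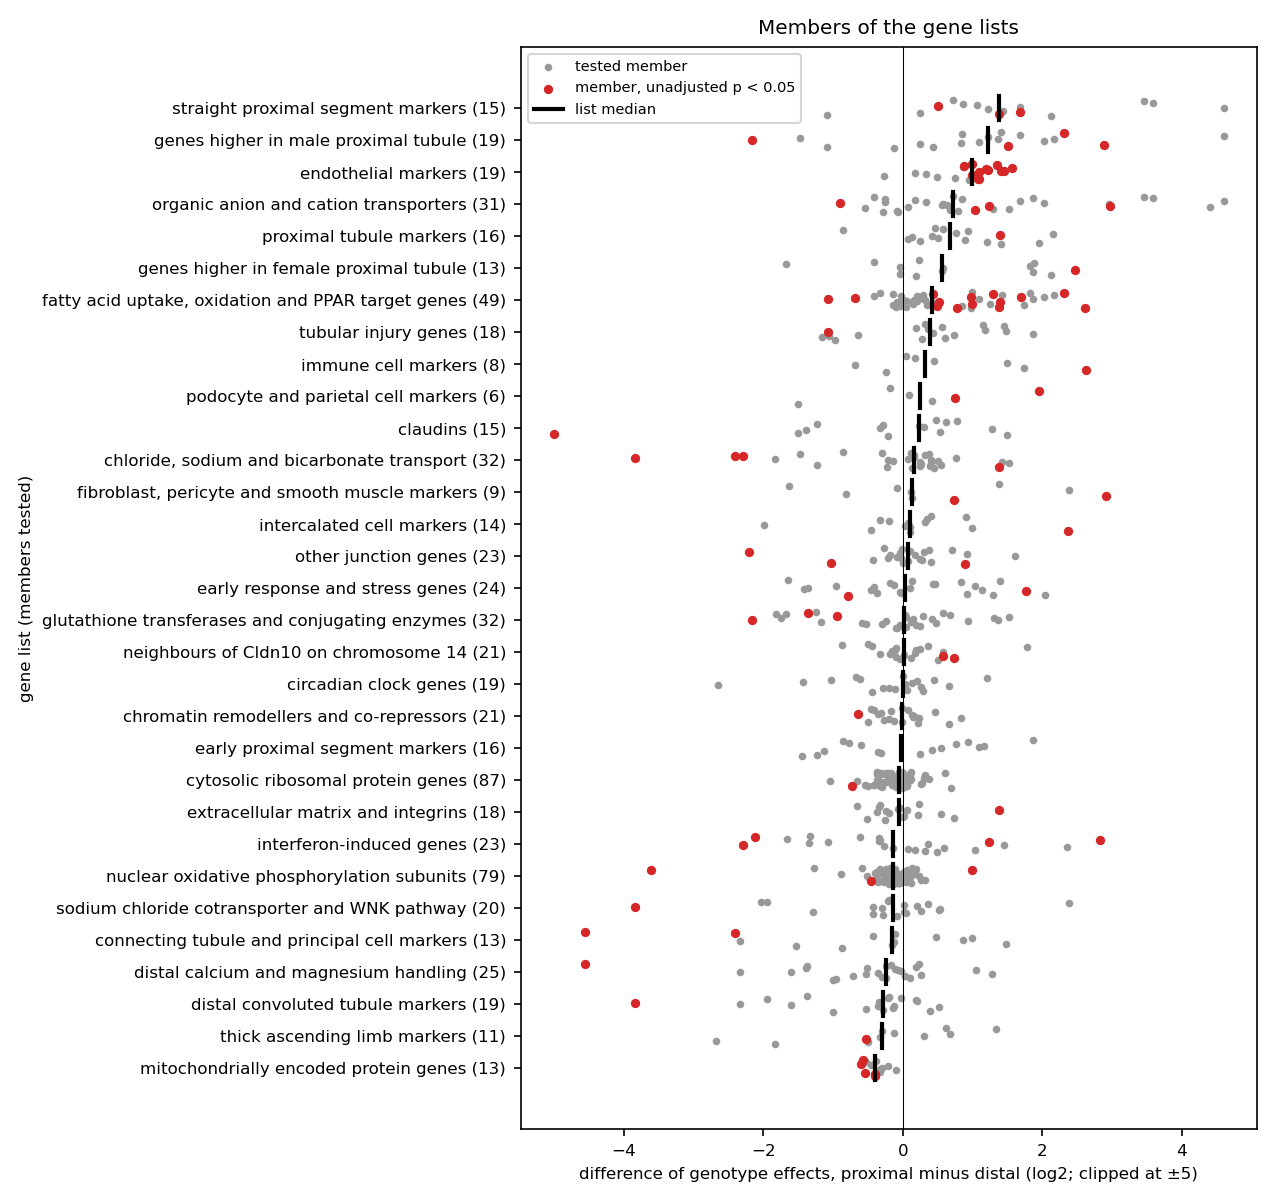
Difference between segments (x axis, log2, clipped at 5 in size) of each tested member of the gene lists with at least 5 tested members (y axis), with members of unadjusted p under 0.05 in red and the list median as a black bar. The endothelial list is nearly all above 0, and the 13 mitochondrially encoded genes are all below 0.

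The 13 protein genes of the mitochondrial genome all lay below 0, with a median difference of -0.39 and 5 (38.5%) of unadjusted p under 0.05. Summed, they were 97700, 97400, 64600 and 103000 CPM in proximal WT and 72200, 81300 and 79900 CPM in proximal KO, and 136000, 133000, 144000 and 143000 CPM in distal WT and 168000, 177000, 146000 and 160000 CPM in distal KO. The distal KO libraries were all above the distal WT ones, and the proximal groups overlapped through WT 3. For mt-Nd5, a subunit of complex I, the means were 5721 ± 1407 and 5029 ± 1195 CPM in proximal tubule and 7852 ± 1567 and 10430 ± 735.5 CPM in distal tubule. None was called. The count of 5 was 0 to 10 when single libraries were left out (10 without proximal WT 3; 0 without proximal WT 1, 2 or 6 or KO 4), 0 with total-count scaling, limma-trend, no filter and the fixed replicate block, and 9 with library weights. The 79 nuclear oxidative phosphorylation subunits had a median of -0.14 with 1 and 2 members on either side, and the 87 cytosolic ribosomal protein genes a median of -0.05 with 0 and 1.

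**Figure D5:**
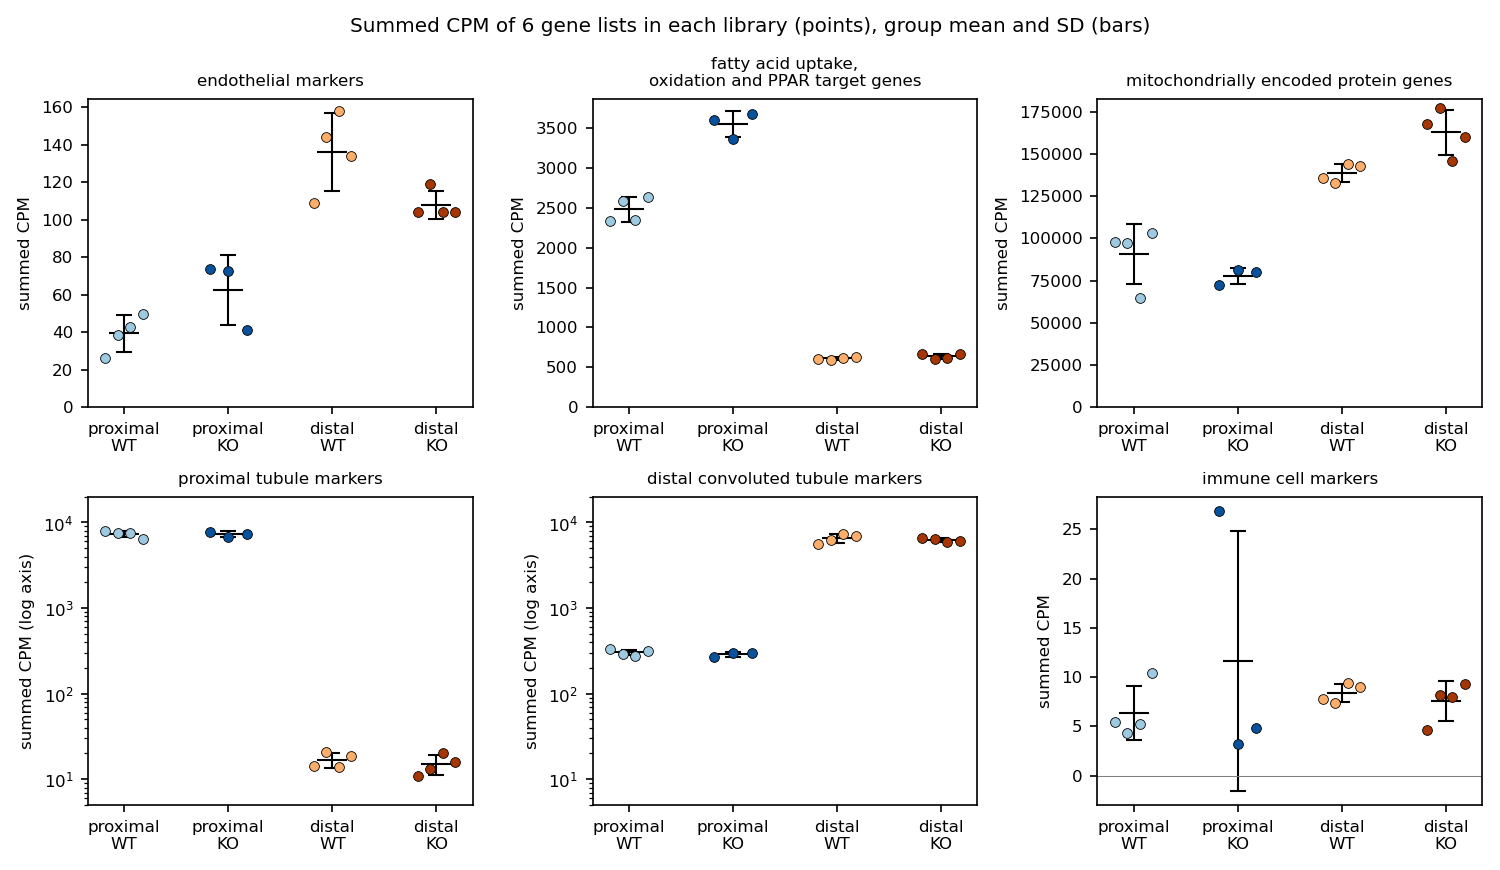
Summed CPM of 6 gene lists in each library (points), with group mean and SD (bars); the proximal and distal marker panels have a log axis. Fatty acid genes are higher in all 3 proximal KO libraries than in the 4 proximal WT libraries, endothelial markers are higher in proximal KO 4 and 5 but not in KO 7, and the immune marker sum is highest in proximal KO 4.

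Markers of the straight proximal segment had the highest median of the lists with at least 5 tested members, 1.38 with 14 of 15 above 0, but 3 of 15 (20%) with an unadjusted p under 0.05, Atp11a, Acy3 and Ghr, the growth hormone receptor. In proximal tubule 7 of the 15 rose, beside 92 of all 15279 tested genes. The sum there was 772 to 1110 CPM in WT and 1400 to 1600 CPM in KO, without overlap. In distal tubule the sum was 30.8 to 33.5 CPM in WT and 26.4 to 39.9 CPM in KO. Only 5 of the 15 had enough counts in both segments, so for the other 10 the difference is set by the proximal change and by distal counts near 0. Early proximal segment markers, by contrast, had 8 members above and 8 below 0, a median of -0.03 and 0 members with an unadjusted p under 0.05 for the difference. In proximal tubule 3 of these 16 fell and 0 rose, beside 31 and 92 of all 15279 tested genes, with a median change of -0.345. The proximal sums overlapped, at 3870 to 4340 CPM in WT and 3610 to 4440 CPM in KO. The median distal change was -0.239, at sums of 18.1 to 26.5 CPM in WT and 17.6 to 19.6 CPM in KO.

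Genes higher in male proximal tubule had a median difference of 1.22 and 15 of 19 above 0, with 3 (15.8%) and 1 of unadjusted p under 0.05. Cndp2, a dipeptidase, rose in proximal tubule from 52.8 ± 16.6 to 106.2 ± 11.4 CPM (limma adjusted p 0.003139), and Cyp2e1, a cytochrome of small-molecule oxidation, from 200.6 ± 84.7 to 428.9 ± 169.5 CPM (0.02822). Gsta4 was the member on the lower side. Genes higher in female proximal tubule also had a positive median, 0.56, with 9 of 13 above 0 and 1 with an unadjusted p under 0.05, Ces1f, an esterase. Xist was 0 to 2 counts in every library.

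Organic anion and cation transporters had a median of 0.72, with 3 and 1 of 31 at an unadjusted p under 0.05. Only 10 of them had enough counts in both segments, and among these the median was 0.26, with 5 above and 5 below 0. Slco3a1, an organic anion carrier, rose in proximal tubule from 14.9 ± 6.84 to 32.6 ± 5.81 CPM (limma adjusted p 0.01156) and stood at 11.4 ± 1.87 and 11.6 ± 1.16 CPM in distal tubule, and its difference was 1.235 ± 0.354. The other 2 on the higher side, Abcc2 and Slc17a1, stood at 0.26 and 1.16 CPM in distal WT. Among 32 glutathione transferases and conjugating enzymes, 0 and 3 had an unadjusted p under 0.05. These were Gsta4, Gsta2 (179.1 ± 13.9 to 89.5 ± 11.5 CPM in proximal tubule, where it fell, adjusted p 0.003009) and Gsta1 (28.5 ± 3.71 to 14.6 ± 2.79 CPM, where it fell, 0.02733); Gsta1 and Gsta2 are close copies, so their single values are uncertain, and they stood at 0.92 to 2.38 CPM in distal tubule. The list median was 0.01, with 16 members on each side of 0.

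Among ion transport genes the difference appeared in few members. Of 32 chloride, sodium and bicarbonate transport genes, 1 and 3 had an unadjusted p under 0.05, with Slc9a3r2, a scaffold of the sodium-proton exchanger, on the higher side and Slc12a3 and Slc9a3 among those on the lower. Slc9a3, the sodium-proton exchanger itself, stood at 2.62, 1.30, 0 and 2.16 CPM in distal WT and 2.94, 2.53, 4.10 and 2.33 CPM in distal KO, with a difference of -2.29 ± 0.93; only distal WT 3 had no count. In proximal tubule it was 26.1 ± 7.04 and 27.2 ± 2.04 CPM.

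Claudins had 1 member with an unadjusted p under 0.05 for the difference, Cldn10 itself. Of 15 tested, 8 lay above and 7 below 0, and the median was 0.24. Cldn2, which encodes the cation-selective claudin of the proximal tubule, stood at 144, 179, 148 and 136 CPM in proximal WT and 156, 156 and 157 CPM in proximal KO, which overlapped, and at 0.35 ± 0.30 and 0.30 ± 0.25 CPM in distal tubule; its difference was 0.24 ± 0.77, an error too wide to compare the segments. Cldn12 was measured well in both, at 26.9 ± 1.96 and 28.2 ± 2.36 CPM in proximal tubule and 8.20 ± 1.54 and 6.87 ± 0.71 CPM in distal tubule, with a difference of 0.30 ± 0.21. Cldnd1, a claudin-domain protein, was 0.53 ± 0.26. Cldn8, a claudin of the distal nephron, stood at 79.9 ± 11.7 and 81.4 ± 14.7 CPM in distal tubule and at 0 to 0.104 CPM in proximal tubule. Of 23 other junction genes, 1 and 2 had an unadjusted p under 0.05, with a median of 0.07, and of 21 neighbours of Cldn10 on chromosome 14, 2 (Dnajc3 and Clybl) and 0, with a median of 0.01. In proximal tubule the median change of these neighbours was 0.19, and 1 of the 21 rose, beside 92 of all 15279 tested genes. Their sums were 188 to 205 CPM in proximal WT and 210 to 276 CPM in proximal KO, without overlap. In distal tubule the sums overlapped, at 200 to 209 CPM in WT and 200 to 231 CPM in KO.

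The lists of distal function and of stress held few such members. Of 19 distal convoluted tubule markers, 0 and 1 (Slc12a3) had an unadjusted p under 0.05, with a median of -0.29, and of 25 genes of distal calcium and magnesium handling, 0 and 1 (Klk1), with a median of -0.25. Circadian clock genes had 0 and 0 of 19, early response and stress genes 1 and 1 of 24, interferon-induced genes 2 and 2 of 23, and tubular injury genes 0 and 1 (Spp1) of 18. Immune cell markers had 1 and 0 of 8 tested, and markers of fibroblasts, pericytes and smooth muscle 2 and 0 of 9. Podocyte and parietal cell markers had 2 and 0 of 6 (33.3% on the higher side), with a median of 0.25. Intercalated cell markers had 1 and 0 of 14, and thick ascending limb markers 0 and 1 of 11. For the distal change itself, 7 of the 14 intercalated markers had an unadjusted p under 0.05, each lower in KO. Their sums were 295 to 383 CPM in distal WT and 182 to 335 CPM in distal KO, which overlapped. Of the 11 thick ascending limb markers, 3 had such a p, each higher in KO. Over all genes 872 of 15279 (5.71%) did, and none was called.

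The authors' deposited tables of comparisons treat each segment by itself. In the tables the authors deposited, a total of 136 genes had an adjusted p under 0.05 in proximal tubule and 3 in distal tubule (Atrx, AC134468.1 and Nab1), and 0 in both; 97 of the 136 (71.3%) were among the 123 called here (78.9% of these). For Gsta4 the authors' deposited tables give -2.32 in proximal tubule (adjusted p 4.201e-12) and -0.11 in distal tubule (0.8898). For Tnfsf10 the authors' deposited tables give 1.43 (0.01307) and -0.47 (0.3951).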

How the data were processed

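RNA from 15 libraries of dissected mouse tubules was sequenced. Per the submitters' processing notes, the authors used CASAVA 1.8, STAR 2.5 and DESeq2 1.24.0 on GRCm38; which program counted the reads, with what annotation and strand setting, is not given in the sources used here. Without a known strand setting, reads of a gene and of its antisense or overlapping partner cannot be told apart. The deposited table holds whole-number counts per gene, and the authors also deposited log2 fold changes with p-values and adjusted p-values per segment. The sign of those fold changes was read from Cldn10 in the proximal table, and in the distal table from the sign shared with the fit here by 157 of 163 named genes. The space-separated layout of the count table was not recognised by the unit check, so its unit was recorded as other, and a quasi-likelihood count test was not run.

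Counts were scaled by the trimmed mean of M values (trim of 30% on the ratio and 5% on the level) and fitted with limma 3.58.1 voom in R 4.3.3 (prior 0.5) as 4 group means. The filter kept genes with about 10 counts in at least 3 libraries and a total of 15. Benjamini-Hochberg adjusted p under 0.05 over all 15279 genes was called. The steps were tested on simulated data. Symbols came from GENCODE names (54723 of 54752 IDs), and 24945 genes had no count.

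The comparison and the gene lists were chosen with earlier results of these data known. Genes named for the difference had a log2 difference of at least 1 and the smallest p, up to 10 per direction, among non-predicted symbols with at least 2 CPM in 1 segment, and again among those with at least 2 CPM in all 4 groups. Up to 8 genes of opposite and 6 of equal sign, up to 12 called in 1 segment, the claudins and up to 4 per list were added. Genes cited beyond these from lists (Crot, Slc25a20, Acadm and Acadl) were chosen after their values were seen. Of 20 genes named for the first rule and Cldn10, 11 had a RefSeq promoter window; no other sequence is shown. Alternatives were other scalings, filters, weights, limma-trend, replicate blocks, the range of the library number as a covariate, and leaving out libraries.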

Additional observations from a re-analysis of the deposited data

Results flagged for a closer look

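In groups of 4 libraries, 1 library stood apart from the other 3 by more than Dixon's 95% critical share of the group's range for 7 of 93 groups tested among the genes named for the difference; chance alone flags about 1 in 20 groups. In proximal WT 6, Tnfsf10 was 3.66 CPM (1.36 to 1.66 in the others) and Acsm2 was 670 CPM (821 to 852). In distal KO 8, Mpv17l was 6.46 CPM (4.70 to 4.97), Aldh1l1 was 29.9 CPM (25.4 to 26.1) and Spsb4 was 5.42 CPM (2.15 to 2.39). In distal KO 7, Reep5 was 9.47 CPM (13.3 to 13.5). In distal WT 4, Slc12a3 was 825 CPM (603 to 632). Without proximal WT 6 the difference of Tnfsf10 was 2.23, with a limma adjusted p of 0.03676.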

How the results depend on the processing

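The count of 0 genes called for the difference was 1 with no filter, 5 with limma-trend and 2 (Cdo1 and Tnfsf10) without both libraries numbered in the other range, and 0 to 1 when single libraries were left out: Gsta4 without proximal WT 2 or distal KO 7, Tnfsf10 without proximal WT 6 or KO 7, and AC134468.1 without proximal WT 3. The log2 difference of Cldn10 was -8.13 and called with limma-trend. The 123 proximal calls were 59 with total-count scaling, 70 among genes measured in both segments, 61 with limma-trend and 49 to 156 when single libraries were left out, with 50 without WT 1, 52 without WT 3 and 49 without KO 4. The distal count was 13 with no filter and remained 0 when single libraries were left out. The 24 genes of opposite sign were 59 with no filter, 49 with library weights and 18 to 66 when single libraries were left out, with 66 without proximal KO 5 and 38 without WT 6. For the 43 genes recomputed under each alternative, which are Cldn10, those named for a difference or for opposite signs and those called in 1 segment, no difference changed sign; total-count scaling moved the median difference of all genes to 0.1004. The cause of these changes was not tested. The list counts under each alternative were added after seeing the data.

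The numbers in the titles did not pair the libraries: same-numbered proximal and distal libraries had correlations of their deviations of -0.468 to 0.076 over 5756 genes. With the number within genotype as a fixed replicate block, 0 genes were called for the difference (lowest adjusted p 0.7317) and Cldn10 was -10.82; since each number then belongs to 1 genotype, this block leaves the single-segment counts without an estimate. As a random replicate block it gave 0 genes for the difference, 129 in proximal tubule, 0 in distal tubule, 24 of opposite sign and -9.20 for Cldn10.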
